A study of Rattus norvegicus with 4 samples.

Results

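The mitochondrial carrier family (Slc25) was described in 4 cultures of NR8383 cells exposed to titanium dioxide particles. Its members were every measured gene whose rat symbol is Slc25a followed by a number, with the uncoupling proteins Ucp1, Ucp2 and Ucp3 added. By this rule, which used no measured value, 43 of 16581 named genes were members, and 60 probes stood for them. A further 13 protein-coding symbols of the family in the rat reference table matched no probe, among them Slc25a12, Slc25a13, Slc25a26, Slc25a31, Slc25a36, Slc25a36l1, Slc25a40, Slc25a48, Slc25a51l1, Slc25a52, Slc25a5l1 and Slc25a6.

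NR8383 is an established line of rat alveolar macrophages, the phagocytes that clear inhaled particles from the air spaces of the lung. All 4 cultures had the same history: cells after 20 passages, grown with 15% serum, seeded for 48 h in 25 cm2 flasks and given NM105, a TiO2 powder that mixes the anatase and rutile crystal forms, for 4 h at 3 cm2 of particle surface per cm2. The study also had untreated cultures, which were not analysed here, so no value below is a response to TiO2. The labels call the 4 cultures biological replicates of 1 cell line, and replicates 1 to 4 have no order among them.

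Carriers of this family sit, with few exceptions, in the inner mitochondrial membrane, which small charged molecules cannot cross unaided. Each moves a metabolite, nucleotide, cofactor or ion into or out of the matrix, often in exchange for another. In macrophages this traffic joins the respiratory chain to the cytosol, where exported citrate feeds lipid synthesis and exported ATP pays for uptake and movement. Uncoupling protein 1 lets protons leak back into the matrix and so makes heat in brown fat.

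The arrays differed in brightness. An array's reference intensity is the 75th percentile of its probes detected on all arrays. It stood at 1431 (replicate 1), 585 (replicate 2), 767 (replicate 3) and 831 (replicate 4) intensity units, and no gene spot was saturated. A probe is called detected where its signal was well above background by the scanner software's own call. Of 10 macrophage markers 9 were detected on all 4 arrays, and Adgre1, which encodes the surface protein F4/80, was detected on none. None of 6 epithelial, 5 fibroblast, 4 T cell, 2 B cell, 3 red blood cell or 3 testis markers was detected on all 4 arrays. Of other markers, Cidea (brown fat) and Tnnt2 and Mb (striated muscle) were, and Adipoq, Ckm and Myh7 were detected on none. In bulk RNA, fewer cells with a transcript and less of it per cell cannot be told apart.

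In 3 places of the rat genome a carrier gene detected on all 4 arrays lies directly beside one detected on none, with no other protein-coding gene between them. They were chosen for printing after their detection was seen. Ucp3, an uncoupling protein of muscle, lies next to Ucp2, which has a broad range of tissues. Slc25a54 lies next to Slc25a24, a carrier of ATP-magnesium and phosphate. Slc25a43 lies next to Slc25a5, an exchanger of ADP and ATP. The 250 bases before each annotated start are given for these genes, from RefSeq on the GRCr8 assembly. The array files name the older rn4 build, and no coordinate was carried between builds. Each window lies on the plus strand, just upstream of the gene's first exon, and reads 5′ to 3′ towards the start. Capitals mark every CG dinucleotide, the pair of bases at which vertebrate DNA is mainly methylated.
Ucp3, chr1:164227660-164227909 (+): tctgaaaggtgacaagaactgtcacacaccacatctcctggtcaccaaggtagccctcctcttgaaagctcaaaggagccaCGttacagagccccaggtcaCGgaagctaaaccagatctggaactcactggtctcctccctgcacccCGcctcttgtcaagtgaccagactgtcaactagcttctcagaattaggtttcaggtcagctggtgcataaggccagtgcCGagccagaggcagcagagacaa
Ucp2, chr1:164251123-164251372 (+): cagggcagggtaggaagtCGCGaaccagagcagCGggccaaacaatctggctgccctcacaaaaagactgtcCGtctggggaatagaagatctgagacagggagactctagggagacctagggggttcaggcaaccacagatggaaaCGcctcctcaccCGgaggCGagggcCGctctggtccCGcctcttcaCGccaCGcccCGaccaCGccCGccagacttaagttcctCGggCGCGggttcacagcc
Slc25a54, chr2:199399456-199399705 (+): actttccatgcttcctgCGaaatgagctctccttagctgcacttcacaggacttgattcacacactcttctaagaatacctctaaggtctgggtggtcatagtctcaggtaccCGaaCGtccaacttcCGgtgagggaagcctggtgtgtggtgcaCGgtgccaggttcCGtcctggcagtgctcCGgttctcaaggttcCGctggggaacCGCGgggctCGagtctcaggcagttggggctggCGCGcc
Slc25a24, chr2:199449175-199449424 (+): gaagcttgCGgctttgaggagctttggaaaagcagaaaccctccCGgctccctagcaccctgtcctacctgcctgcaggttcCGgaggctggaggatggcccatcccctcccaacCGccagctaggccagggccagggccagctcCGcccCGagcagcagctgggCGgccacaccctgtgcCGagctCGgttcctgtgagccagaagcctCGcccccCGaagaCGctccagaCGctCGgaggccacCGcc
Slc25a43, chrX:120842955-120843204 (+): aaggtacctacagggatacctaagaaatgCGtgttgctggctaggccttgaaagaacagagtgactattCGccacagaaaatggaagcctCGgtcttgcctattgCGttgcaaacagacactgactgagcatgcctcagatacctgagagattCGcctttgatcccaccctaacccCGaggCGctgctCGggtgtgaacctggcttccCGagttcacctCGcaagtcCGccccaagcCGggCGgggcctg
Slc25a5, chrX:120897366-120897615 (+): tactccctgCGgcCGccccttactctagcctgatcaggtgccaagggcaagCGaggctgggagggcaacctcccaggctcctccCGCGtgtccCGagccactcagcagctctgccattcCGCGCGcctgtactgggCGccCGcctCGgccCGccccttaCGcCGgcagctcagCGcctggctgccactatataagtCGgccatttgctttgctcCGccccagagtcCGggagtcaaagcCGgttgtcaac
The window of Ucp3 held 4 CG dinucleotides and that of its detected neighbour Ucp2 held 17. The window of Slc25a54 held 13 and that of Slc25a24 held 15. For Slc25a43 the table gives 2 starts, and the window shown, the one with more CG, held 13 against 20 before Slc25a5. The detected gene had the higher count in each of these 3 places, by as few as 15 against 13.

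The neighbours differed in signal on every array. Ucp3 gave 2.94, 3.17, 6.005 and 3.90 intensity units on replicates 1 to 4, and Ucp2 gave 1661, 566, 543 and 746. Slc25a54 gave 4.46, 3.39, 5.40 and 3.71, and Slc25a24 gave 429, 164, 236 and 266. Slc25a43 gave 7.63, 9.78, 9.44 and 5.94, and Slc25a5 gave 4691, 1418, 3011 and 3004. For scale, 99% of negative control spots lay below 5.62, 5.48, 5.07 and 5.96 units on the 4 arrays. Of these undetected genes, Slc25a43 stood above that mark on 3 arrays and Ucp3 and Slc25a54 on replicate 3, and the software still called none of them well above background. Intensities of different probes also reflect how well each binds, so these values show detection and not a ratio between genes. Slc25a29 and Slc25a47 are neighbours too and were detected on 2 arrays and on none. Slc25a41 and Slc25a23, also adjacent, were both detected on none.

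Over the whole family, 22 of 43 members (51.2%) were detected on all 4 arrays, against 35.2% of all named genes. A further 6 members (14.0%, against 11.2% of all named genes) were detected on 1 to 3 arrays, and 15 (34.9%, against 53.7%) on none. These shares are descriptions of 1 group and were not tested. By transported substance, the count was 4 of 5 for carriers of carboxylates and acylcarnitine and 5 of 7 for those of phosphate and adenine nucleotides. Of the carriers of amino acids 4 of 7 were detected on all arrays, of those of iron and glutathione 2 of 3, and of those of cofactors and pyrimidine nucleotides 3 of 6. It was 2 of 6 for the uncoupling proteins and their relatives and 2 of 9 for the remaining members.

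**Figure D1:**
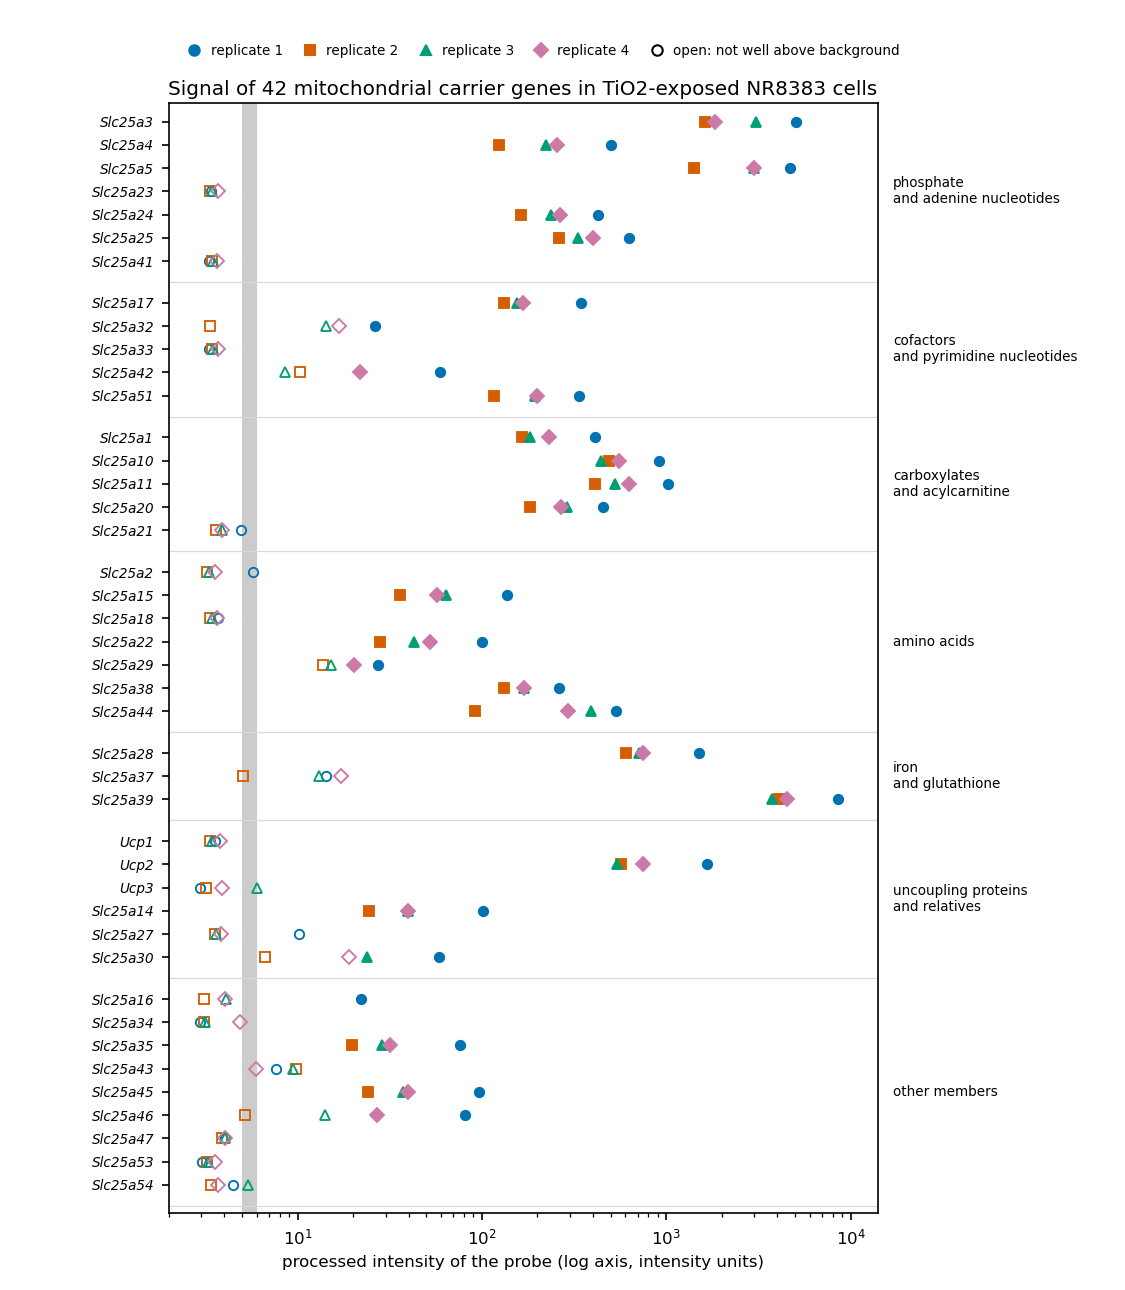
Processed intensity (log axis, intensity units) of the probe shown for 42 of the 43 carrier genes, with 1 point per replicate array, filled where the signal was well above background and open where it was not; the grey band spans the 99th percentile of negative controls on the 4 arrays (5.07 to 5.96). Genes are grouped by what they carry; 21 have 4 filled points, and positions of different genes are not comparable levels.

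The carriers behind ATP export gave signal on every array. Their values are given as levels, the log2 processed intensity minus the array's reference, so that 0 is the reference and the values in each list stand for replicates 1 to 4. Slc25a3, which brings in the phosphate for ATP synthesis, had levels of 1.83, 1.47, 2.00 and 1.14 (mean 1.61 ± 0.38, SD, n = 4). Its highest array, replicate 3, stood 1.81-fold above its lowest, replicate 4. Slc25a5, the ADP/ATP exchanger known from proliferating cells, had levels of 1.71, 1.28, 1.97 and 1.85 (1.70 ± 0.30). Replicate 2 was the low array, and the SD of Slc25a5 without it was 0.125. Here and below, where a member's SD is given without its most distant array, the drop is set by that choice. Slc25a4, the ADP/ATP exchanger known from heart and muscle, had levels of -1.52, -2.25, -1.78 and -1.70 (-1.81 ± 0.31). Replicate 2 was low again, and without it the SD was 0.14. Slc25a3 was not low there in the same way, since its lowest array was replicate 4. The reference table lists 9 pseudogenes named for Slc25a5, 2 for Slc25a3 and 1 for Slc25a4, and signal from such near copies cannot be separated from that of the gene.

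Carriers that exchange ATP-magnesium for phosphate, and so set the size of the adenine nucleotide pool in the matrix, were divided. Slc25a24 and Slc25a25, both regulated by calcium, were detected on all arrays with little spread. Slc25a24 had levels of -1.74, -1.84, -1.70 and -1.64 (-1.73 ± 0.081). Slc25a25 had levels of -1.19, -1.16, -1.21 and -1.05 (-1.15 ± 0.071). The highest array was replicate 4 for both, at 1.14-fold and 1.12-fold above the lowest, and without replicate 4 the SD of Slc25a25 was 0.020. Without replicate 2 that of Slc25a24 was 0.052. Slc25a23, the remaining calcium-regulated carrier of this kind, gave 3.36 to 3.68 units and was detected on no array. Slc25a41, a relative without the calcium-binding part, gave 3.31 to 3.68 units and was not detected either.

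Carriers of carboxylates serve the citric acid cycle and lipid synthesis. Slc25a1, which exports citrate, had levels of -1.80, -1.83, -2.07 and -1.85 (-1.89 ± 0.13). Replicate 3 was the low array, and without it the SD was 0.025. Slc25a11, which exchanges oxoglutarate for malate in the shuttle that carries reducing power across the membrane, had levels of -0.48, -0.51, -0.54 and -0.40 (-0.48 ± 0.058). Its highest array was 1.099-fold above its lowest, the narrowest range among the 22 members, and its SD without replicate 4 was 0.031. Slc25a10, the dicarboxylate carrier, had levels of -0.65, -0.26, -0.79 and -0.59 (-0.57 ± 0.22). Here replicate 2 was the high array, 1.45-fold above replicate 3, and without replicate 2 the SD was 0.11. Slc25a20, which brings acylcarnitines in for fatty acid oxidation, had levels of -1.65, -1.68, -1.41 and -1.64 (-1.59 ± 0.13). Replicate 3 alone was high, and the SD of the other 3 arrays was 0.030. Slc25a21, which carries oxoadipate from lysine and tryptophan breakdown, was detected on no array, and its brighter probe gave 3.62 to 4.95 units.

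Among carriers of amino acids, Slc25a44 had the highest SD over the 4 arrays of the 22 members detected on all of them. Slc25a44 carries branched-chain amino acids into the matrix. Its intensity was 532, 92.1, 389 and 292 units on replicates 1 to 4. As levels these were -1.43, -2.67, -0.98 and -1.51 (-1.65 ± 0.72). Replicate 3 was the high array and replicate 2 the low one, 3.22-fold apart, and the SD stood at percentile 99.02 of the 5824 genes with a probe detected on all arrays. Without replicate 2, its own most distant array, the SD was 0.28. Those of Slc25a3 (0.45), Ucp2 (0.36), Slc25a14 (0.30) and Slc25a35 (0.285) were then higher. Replicate 2 was not the most distant array of these 4 genes, so the comparison is uneven. Its range stayed between 2.36-fold and 3.22-fold under the 6 other ways of correcting, scaling and averaging. Averaging over probes, 1 of these 6, could not change it, since only 1 of its probes was detected. Another probe for Slc25a44 gave 3.86, 9.03, 6.61 and 6.31 units, was detected on no array and so gave no second measurement of this difference.

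The other amino acid carriers spread less. Slc25a38, which brings glycine in for heme synthesis, had levels of -2.45, -2.15, -2.18 and -2.29 (-2.27 ± 0.13). With the processed signal it was the only detected member lowest on replicate 1, and without that array its SD was 0.072. Slc25a15, which carries ornithine for the urea cycle, had levels of -3.40, -4.03, -3.59 and -3.86 (-3.72 ± 0.28). Slc25a22, which carries glutamate, had levels of -3.83, -4.39, -4.16 and -3.98 (-4.09 ± 0.24). Replicate 1 was the high array and replicate 2 the low one for both. With normexp, a model-based background correction run here with an added offset of 50 units, replicate 1 was the low one. Slc25a29, which carries basic amino acids, was detected on replicates 1 and 4 only, with 27.2, 13.7, 15.2 and 20.1 units. Slc25a2 (ornithine) gave 3.24 to 5.70 units and Slc25a18 (glutamate) gave 3.36 to 3.69, so the relatives of Slc25a15 and Slc25a22 with the same kind of cargo went undetected. These relatives have 1 probe each. Slc25a15 has 3 probes and Slc25a22 has 2, and in both only 1 probe was detected on any array, so the contrast rests on that probe.

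Slc25a17 and Slc25a51 were cofactor carriers detected on all arrays. Slc25a17, a carrier of coenzyme A and related cofactors in the peroxisome membrane, had levels of -2.06, -2.14, -2.31 and -2.32 (-2.21 ± 0.13). Slc25a51, which brings NAD+ into the matrix, had levels of -2.08, -2.33, -1.99 and -2.06 (-2.12 ± 0.15). Replicate 2 was the low array for the brightest probe of Slc25a51, whose SD without it was 0.041. With normexp that probe was lowest on replicate 1. The other probes of Slc25a51 detected on all arrays were lowest on replicates 1, 4 and 2. Slc25a42, which carries coenzyme A, gave 59.3, 10.2, 8.58 and 21.8 units and was detected on replicates 1 and 4. Slc25a32, which carries folate and FAD, gave 26.3, 3.37, 14.3 and 16.8 units and was detected on replicate 1 only. Slc25a33, a carrier of pyrimidine nucleotides, gave 3.30 to 3.70 units and was detected on none.

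The glutathione carrier and 1 of the mitoferrins were detected throughout. Slc25a39, which brings glutathione into mitochondria, gave 8563, 4071, 3770 and 4520 units. Its levels were 2.58, 2.80, 2.30 and 2.44 (2.53 ± 0.21), with replicate 2 high and replicate 3 low, 1.42-fold apart. The reference table lists 8 pseudogenes named for Slc25a39. Slc25a28, mitoferrin-2, an iron importer of many tissues, had levels of 0.08, 0.04, -0.11 and -0.16 (-0.04 ± 0.11). Slc25a37, mitoferrin-1, the iron importer of developing red blood cells, gave 14.2, 5.07, 13.0 and 17.2 units and was called detected nowhere. Its signal lay above the 99th percentile of negative controls on 3 arrays, replicate 2 being the exception.

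Of the uncoupling proteins only Ucp2 was detected. Ucp2 is the uncoupling protein best known from immune cells. It had levels of 0.22, -0.05, -0.50 and -0.16 (-0.12 ± 0.30). Replicate 1 was the high array and replicate 3 the low one, 1.64-fold apart, and without replicate 3 the SD was 0.19. Ucp1, the heat-making protein of brown fat, gave 3.35 to 3.77 units, and Ucp3, with the values given above, was detected on no array. Among relatives of the uncoupling proteins, Slc25a14 had levels of -3.82, -4.59, -4.26 and -4.39 (-4.27 ± 0.33), with an SD of 0.17 without replicate 1. Replicate 1 was its high array, and with normexp its low one. Slc25a30 gave 58.3, 6.67, 23.7 and 19.0 units and was detected on replicates 1 and 3. Slc25a27, known from the nervous system, has 4 probes, and none was detected on any array.

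For the remaining 9 members no transported substance is stated. Slc25a35 had levels of -4.23, -4.89, -4.73 and -4.71 (-4.64 ± 0.28), and Slc25a45 had levels of -3.90, -4.60, -4.36 and -4.38 (-4.31 ± 0.29). Replicate 1 was high and replicate 2 low for both, the reverse of the order with normexp. Without replicate 1 their SDs were 0.099 and 0.13. Slc25a46, a member of the outer membrane with a part in mitochondrial shape, gave 81.1, 5.202, 14.2 and 26.96 units and was detected on replicates 1 and 4. Slc25a16 gave 22.1, 3.11, 4.08 and 4.05 units and was detected on replicate 1 only. Slc25a34, Slc25a43, Slc25a47, Slc25a53 and Slc25a54 were detected on none, among them Slc25a47, a carrier known from liver.

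**Figure D2:**
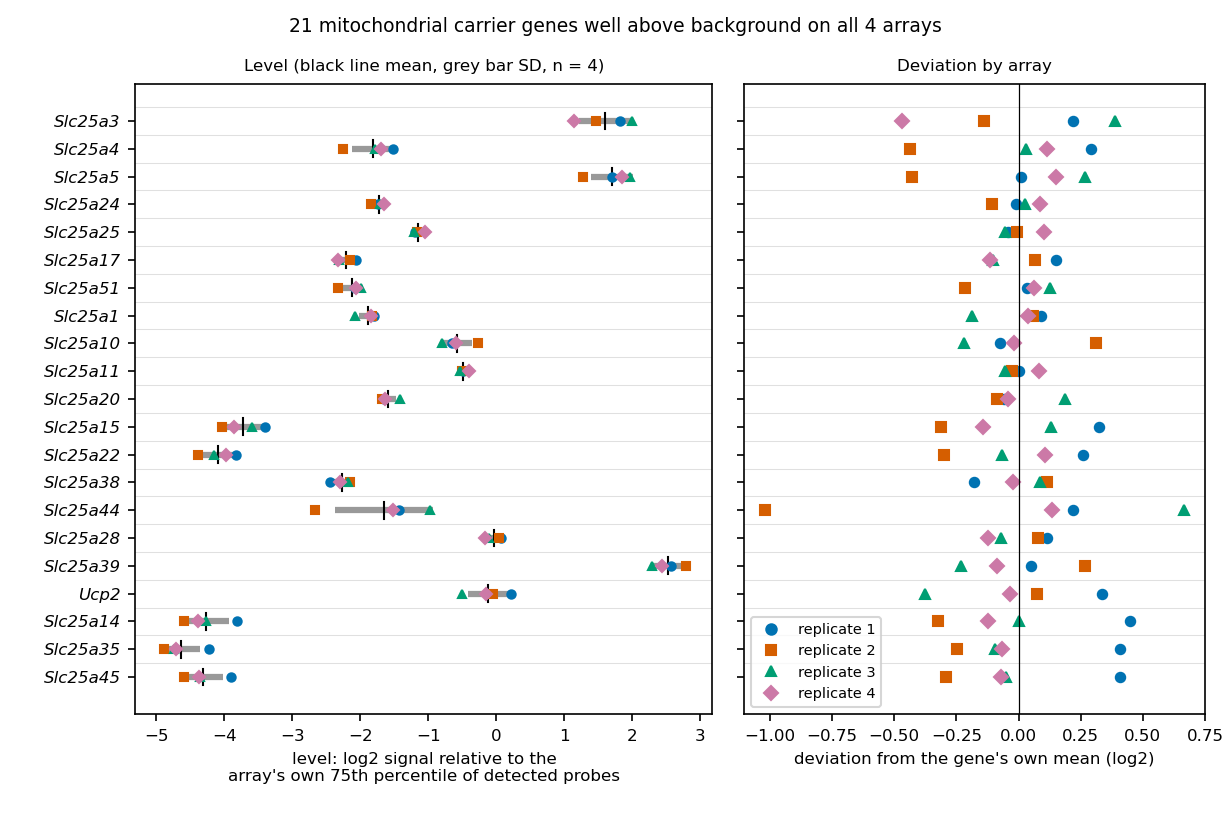
Levels (left, log2 relative to the array's own 75th percentile of detected probes, with mean and SD over n = 4) and deviations of each array from the gene's own mean (right, log2) for 21 of the 22 carrier genes detected on all 4 arrays, 1 marker per replicate. Slc25a44 deviates by 0.67 on replicate 3 and by -1.02 on replicate 2, the widest span shown.

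Across the 22 members detected on all arrays, the median SD between cultures was 0.219, and that of all 5824 such genes was 0.225. The middle 50% of the members lay between 0.126 and 0.295, and the middle 50% of all genes between 0.156 and 0.319. Slc25a44 was the 1 member with an SD above 0.5, against 5.6% of all genes, and the 1 member at least 2-fold higher on its highest array than on its lowest, against 8.96%. A range of at least 1.5-fold was reached by 9 of the 22 members, against 38.8% of all genes. Under the other settings the count was 5 to 9, lowest after quantile normalization and with scaling over all probes, against 24.2% to 40.4% of all genes. The 9 were Slc25a3, Slc25a4, Slc25a5, Slc25a15, Slc25a44, Ucp2, Slc25a14, Slc25a35 and Slc25a45. At the other end, Slc25a11, Slc25a25 and Slc25a24 had SDs at percentiles 2.11, 3.38 and 4.84 of all genes. A level of Slc25a24 averages 10 spots on an array, which evens out spot noise, so its percentile is not a like comparison with genes of 1 spot. Slc25a11 and Slc25a25 have 1 spot each, and their SDs changed with the setting. Under the 6 other ways of correcting, scaling and averaging they ranged from 0.057 to 0.107 and from 0.052 to 0.133. The percentiles stand for the scaling used. Without replicate 2 the members' median SD was 0.143, against 0.194 over all genes, and without replicate 4 it was 0.258, against 0.239.

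**Figure D3:**
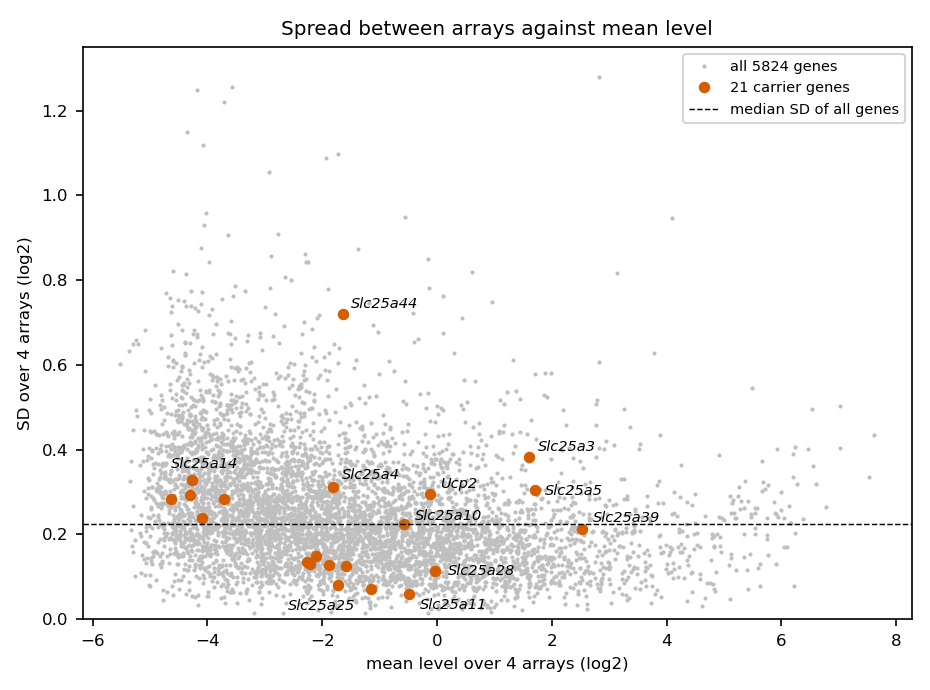
SD over the 4 arrays against mean level (both log2) for 21 of the 22 carrier genes (large points) and all 5824 genes with a probe detected on all 4 arrays (small points), with the median SD of all genes (0.225) as a dashed line. Slc25a44 lies apart at 0.72, and the other carrier genes shown lie at or below 0.38.

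Which array was high or low differed from member to member. Replicate 1 was the highest array for 10 of the 22 members, against 37.8% of all genes, and replicate 2 the lowest for 12, against 32.2%. Replicate 3 was highest for 6 members (19.1% of all genes), and replicates 2 and 4 for 3 each (28.0% and 15.1% of all genes). Lowest levels fell on replicate 3 for 6 members, on replicate 4 for 3 and on replicate 1 for 1, against 22.2%, 20.6% and 25.0% of all genes. This split changed with the scaling and with normexp, which both corrects background and adds an offset. Replicate 1 was highest for 6 members and lowest for 4 after quantile normalization, for 7 and 6 when scaled over all probes, and for 7 and 5 when scaled to the median of detected probes. With normexp in place of the software's processed signal, replicate 1 was highest for 5 members and lowest for 11, and replicate 2 was lowest for 4 and highest for 9. Of the 9 members below a level of -1.93, the median of all genes, 6 were highest on replicate 1 and 7 lowest on replicate 2, and of the 13 members at or above it 4 and 5 were. Over all genes the shares were 44.3% and 37.9% below that level and 31.4% and 26.4% at or above it. Replicate 1 was also the brightest array, and its part in this result was not tested. Of the 6 members detected on only some arrays, each was detected on replicate 1 and none on replicate 2. Of the 1855 named genes detected on only some arrays, 92.7% were detected on replicate 1 and 7.98% on replicate 2. For 7 members, Slc25a4, Slc25a5, Slc25a10, Slc25a38, Slc25a44, Slc25a39 and Ucp2, the highest and the lowest array stayed the same under all 6 other ways of correcting, scaling and averaging. For the remaining 15 members the highest or the lowest array changed under at least 1 of them. Averaging over probes could change nothing for Slc25a4, Slc25a10, Slc25a38, Slc25a44 and Ucp2, which have 1 detected probe each.

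A test of whether any arrays differed was possible for 2 detected members, whose probes occupy several spots of an array. The test was limma's moderated F between the 4 arrays with Benjamini-Hochberg adjustment over 1594 such probes, 85.2% of which it called. It sets differences between arrays against the spread of spots that share 1 culture's RNA, so the p-value speaks of arrays and not of the exposure. Slc25a39, with 2 spots, differed between arrays (limma adjusted p = 0.00296), by 1.42-fold at most. Its 2 spots lay between 2.79 and 2.81 on replicate 2, the high array, and between 2.27 and 2.33 on replicate 3, the low one. Slc25a24, with 10 spots, did not pass (limma adjusted p = 0.228) and its highest array was 1.14-fold above its lowest. Its spots spread from -2.60 to -1.50 on replicate 1 (SD 0.36), and their SD was 0.14, 0.12 and 0.098 on replicates 2 to 4. Without replicate 1 Slc25a24 passed (limma adjusted p = 0.00496), while its range was still 1.14-fold. Requiring a 1.5-fold or a 2-fold range as well left no member, against 27.2% and 4.64% of the 1594 probes. With scaling over all probes Slc25a39 had a range of 1.53-fold (limma adjusted p = 0.00102) and met the 1.5-fold minimum.

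Separate probes of a gene gave a second view of some members. The 2 probes of Slc25a5 had SDs of 0.30 and 0.28, and both were highest on replicate 3 and lowest on replicate 2. The 2 probes of Slc25a39 had SDs of 0.21 each, and both were highest on replicate 2 and lowest on replicate 3. For these genes the probes gave the same order at both ends. The probes of Slc25a51 did not. Slc25a51 had 4 detected probes with SDs of 0.15, 0.38, 0.18 and 0.21, whose lowest arrays were replicates 2, 1, 4 and 2. Its remaining probe gave 12.1, 26.1, 26.5 and 17.7 units and was detected on replicates 2 and 3 only. In Slc25a15, Slc25a22 and Slc25a44, 3 of the 11 members with several probes, 1 probe was detected on all arrays and every other on none. Of all genes with several probes, 14.6% had at least 1 probe of each kind.

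**Figure D4:**
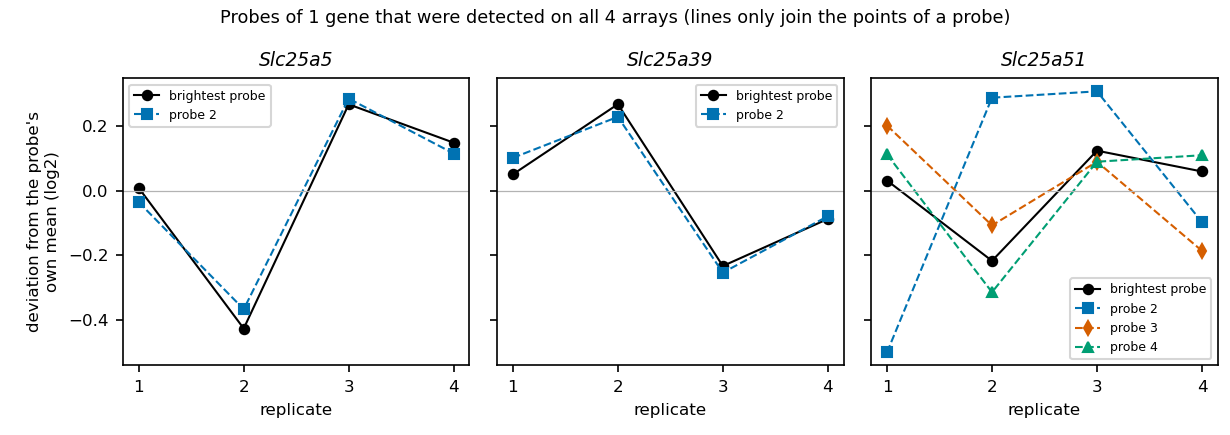
Deviation of each probe from its own mean (log2) on the 4 replicate arrays, for 3 carrier genes with several probes detected on all arrays; lines only join the points of a probe, since replicates have no order. The probes of Slc25a5 and of Slc25a39 run together, and those of Slc25a51 do not.

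Windows before the start were in the RefSeq table for 38 of the 43 members. Those detected on all arrays had a median of 16 CG dinucleotides in 250 bases (n = 21, range 6 to 33), and those detected on none had 7.5 (n = 14, range 1 to 30). All named genes had the same kind of difference, with medians of 17 where detected on all arrays (n = 4929) and 6 where detected on none (n = 7091). The members therefore lay near the genes of like detection. Slc25a39 had the most CG, 33, and Slc25a33, detected on no array, had 30. Slc25a15, at 6, had the fewest among members detected on all arrays.

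**Figure D5:**
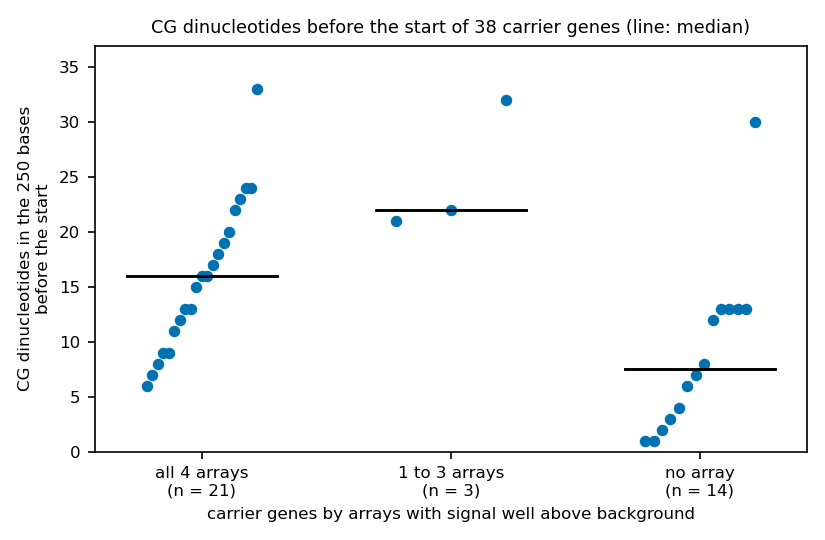
Number of CG dinucleotides in the 250 bases before the annotated start of 38 carrier genes, grouped by the number of arrays on which they were detected, with 1 point per gene set side by side in rising order and a line at the median (16, 22 and 7.5). Genes detected on no array have the lowest median, and the ranges overlap.

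Short motifs were counted in the same windows on both strands, as letters and not as sites. The GC box GGGCGG stood before 14 of 21 members detected on all arrays (66.7%) and before 5 of 14 detected on none (35.7%). All named genes had like shares, 61.0% where detected on all arrays and 33.6% where detected on none, and 46.1% in all. Its share over all 38 members was 57.9%. The CCAAT box, CCAAT, stood before 50.0% of members, against 36.0% of all genes. The TATA box, TATAAA, stood before Slc25a38 and Ucp1 only (5.26%), against 12.0%. The core TGACG of the cyclic AMP response element stood before 21.1%, against 23.6%. The core motif of nuclear respiratory factor 1 (NRF-1) was found in none of the 38 windows and in 6.51% of those of all genes. These shares pool genes that differ in detection. Where detected on all arrays, CCAAT stood before 47.6% of members and 38.8% of all genes, and TATAAA before 4.76% and 6.78%. TGACG stood before 23.8% and 32.2%, and the NRF-1 motif before 0.0% and 10.7%. Where detected on none, CCAAT stood before 50.0% and 34.1%, and TATAAA before 7.14% and 16.4%. TGACG stood before 14.3% and 16.5%, and the NRF-1 motif before 0.0% and 3.02%.

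Lists of other mitochondrial transport genes were read in the same way. All 13 measured genes of the route that imports carrier proteins into mitochondria were detected on all arrays, with a median SD of 0.184. Among them the receptor genes Tomm20 and Tomm70 had levels of 1.17 ± 0.27 and -3.12 ± 0.28, and the outer membrane channel gene Tomm40 had -2.34 ± 0.23 (n = 4 each). The 3 channel genes Vdac1, Vdac2 and Vdac3 and both measured carrier relatives, Mtch1 among them, were all detected, with a median SD of 0.145. Of 15 other inner membrane transporters 10 were detected on all arrays, with a median SD of 0.175. They included Mpc1 and Mpc2, which import pyruvate, at 0.62 ± 0.11 and -0.24 ± 0.062. Mcu, the pore of the calcium uniporter, was detected on none.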

How the data were processed

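Expression was measured on 4 Agilent 1-colour arrays of 1 group, with 100 ng of Cy3-labelled RNA (RIN above 7.5) from each exposed culture. The deposited files hold processed spot intensity, which the authors' software, Agilent Feature Extraction 11.0.1.1, subtracted for background and did not normalize between arrays, per the file headers. All arrays lay on 1 slide (design 074036). Each of 45598 probes was named, where possible, by matching its accession to the GRCr8 gene table, which named 21109. Control spots and spots marked as outliers (486 to 723 on an array) were left out, and spots of a probe were averaged as log2. A level is log2 intensity minus the array's 75th percentile over the 22.9% of probes detected on all 4 arrays. A probe was detected where over 50% of its spots were well above background, and a gene where any probe was. A gene took its brightest detected probe. The number of arrays, 4, limits the precision. Tests used limma 3.58.1 in R 4.3.3, tested on simulated data. Normexp (offset 50) ran on the median spot signal, since the mean was not used here. The rule named every member and, from each other list, the first 4 detected and the first 2 not detected. Some genes it picks are not reported here, though counts include them. Protein sequences were not used here. Members and lists were chosen with earlier results of these data known. Alternatives are given in the closing section.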

Additional observations from a re-analysis of the deposited data

Results flagged for a closer look

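The highest and the lowest array were set against the other 3 by Dixon's gap ratio for the 22 members detected on all arrays, by level, and for the 6 detected on only some arrays, by intensity. In 2 of these members 1 array stood apart, Slc25a20 among the 22 and Slc25a16 among the 6. Chance gives about 5% of groups tested by level, and 1 flag among 22 is near that share. The 5% does not hold for the 6, which were chosen by detection and compared without scaling. The share over all genes is not given here. Slc25a20, the acylcarnitine carrier, had a level of -1.41 on replicate 3, and the gap to the nearest other array was 0.839 of its whole range. Slc25a16 had an intensity of 22.1 units on replicate 1, and the gap was 0.949 of its range. It was among the 6 only because replicate 1 was detected, so this gap was largely set by that choice, and intensities are not scaled between arrays. Replicate 1 was the brightest array, and its part in the Slc25a16 value was not tested.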

How the results depend on the processing

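No paired analysis was possible because the 4 arrays form 1 group, and a slide block could not be fitted because all lay on 1 slide. The count of 22 members detected on all arrays was 18 when every probe of a gene had to be detected, 26 by the 99th percentile of negative controls and 28 on at least 1 array. Over all 16581 named genes the count of 5830 became 4957, 7359 and 7685 under these rules. The members' count was 22 with every spot required, on at least 3 arrays, and without each replicate in turn. The count over all genes was then 5817, 6339 and 5838 to 6262. The median SD of 0.219 lay between 0.164 (normexp) and 0.311 (no filter on dim probes), and between 0.143 and 0.258 with 1 replicate left out, lowest without replicate 2. The unfiltered value covers all 43 members, also those at background, and was 0.464 over all genes. The limma test called 1 of 2 members, and 1358 of all 1594 probes tested. Without a filter on dim probes it called 2 of 3 members, and 1889 of 2319 probes. Slc25a18 was the added one (limma adjusted p = 0.000287). Slc25a18 was detected on no array, and its signal was nearly level at 3.36 to 3.69 units. Its 2.23-fold range arose when the references, 585 to 1431 units, were subtracted as log2, so this call says nothing of its RNA. The count was 0 with a 1.5-fold or 2-fold minimum at the scaling used, against 434 and 74 of the 1594 probes. With 1 replicate left out it was 1 to 2, against 1147 to 1307 of the 1594 to 1621 probes then tested. The limma adjusted p of Slc25a39 ranged from 0.00102 to 0.0490 and that of Slc25a24 from 0.00496 to 0.598. Scaling over all probes or to the median moved the level of all 22 members by more than their SD, since both move the zero point. Leaving out replicate 2 moved 17. There the reference was taken over the probes detected on the remaining arrays, another set, which moves the zero point too. Quantile normalization moved 4 SDs. Normexp, which adds an offset of 50 units to every spot as well as correcting background, moved 13 levels and 7 SDs. The parts of the offset and of the correction were not tested. Depth on arrays is signal over background, and members not well above it have only a bound.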
